A study of Mus musculus with 8 samples.

Results

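The genes described here are 33 mouse genes that make cholesterol and fatty acids or control that synthesis, taken by gene symbol from a list. The rule uses no measured value, but the list was drawn up with earlier results of these data known. The list holds 18 enzymes of the route from acetyl-CoA to cholesterol, 6 regulators of the sterol-sensing transcription factors SREBP, 6 enzymes of fatty acid synthesis and 3 genes of sterol efflux. In the count table of 12160 genes, 30 of the 33 had a row: 16 sterol enzymes, 6 regulators, 6 fatty acid enzymes and 2 efflux genes. Idi1, Fdft1 and Abcg1 were not analysed here. All 30 passed the count filter in each comparison, and none was at or under 3 counts in every library of both groups compared.

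RNA came from an immortalized mouse line of pancreatic stellate cells (PSCs), the fibroblast-like cells of the pancreas that can become cancer-associated fibroblasts. Cells were seeded in growth factor-reduced Matrigel, at 20000 cells per the labels, and received growth medium (DMEM, FBS at 10%) during the first 4 days and 1 of 3 media during the next 4. KPC-shBrca2-CM (shBrca2-CM below) was conditioned by mouse pancreatic cancer (KPC) organoids that carried a lentiviral shRNA against Brca2, and KPC-shControl-CM (shControl-CM) by KPC organoids with a non-targeting shRNA. The third group was the control, called growth medium here: the titles and the study's Results name growth medium (DMEM), while the labels' treatment and the study's Methods name medium conditioned by the PSCs themselves. There were n = 3 domes with shBrca2-CM, n = 3 domes with shControl-CM and n = 2 domes with growth medium. The PSCs themselves carried no shRNA, so their libraries do not check the silencing of Brca2. Per the study's methods, organoid medium was collected in DMEM with a lower share of serum than growth medium, and serum lipid and products of the organoids cannot be told apart in comparisons with growth medium. All cells were of 1 line, so n counts domes and not animals.

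Cells build cholesterol from acetyl-CoA through mevalonate, farnesyl diphosphate, squalene and lanosterol, and the transcription factor SREBP2 (gene Srebf2) switches on most of these enzymes when sterols in the endoplasmic reticulum fall. SCAP escorts SREBP to the Golgi for its activation, and the INSIG proteins hold SCAP back when sterols are plentiful. SREBP1 (Srebf1) acts mainly on fatty acid synthesis, and liver X receptors, which sense oxidized sterols, switch on efflux transporters such as ABCA1. Fibroblasts take up sterol from serum lipoproteins as well as making it.

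Libraries held the 3′ ends of mRNA and held between 655996 and 1095534 counts in the shBrca2-CM group, between 1093609 and 1624392 in the shControl-CM group, and 5476988 and 4623846 in the growth medium group. A floor of 3 counts stood at 0.521 to 4.34 CPM (counts scaled to the library total, with TMM normalization), which covers counting error only. All 12 fibroblast markers of a fixed list had rows in the table. Their summed level was 5260 to 5968 CPM in the shBrca2-CM group, 5780 to 6833 in the shControl-CM group, and 9373 and 11230 in growth medium, so the sum was lower after both conditioned media. The markers did not move as 1: with shControl-CM 3 of the 12 were called higher (Dcn, Thy1 and Lum) and 7 lower, and with shBrca2-CM 3 higher and 7 lower. Dcn, decorin, had log2 fold changes of 4.50 and 3.56. Among those that fell, Vim had a mean of 3756 CPM in growth medium, 361 with shControl-CM and 586 with shBrca2-CM. The means of Col1a2 were 896, 161 and 247 CPM in the same order. Of 10 epithelial markers only Krt18, Krt19 and Muc1 had rows, and Epcam, Cdh1 and Krt8 had none. Their summed level was 59.3 to 94.1 CPM in the shBrca2-CM group, 57.7 to 70.6 in the shControl-CM group, and 41.7 and 36.97 in growth medium, with Krt18 and Muc1 called higher and Krt19 called lower with both conditioned media. Of 8 adipocyte markers 4 had rows. Their sum was 30.2 and 25.4 CPM in growth medium, 31.2 to 46.1 with shControl-CM and 37.6 to 39.9 with shBrca2-CM. With shControl-CM 1 of these was called higher and 1 lower, and with shBrca2-CM 2 higher and 0 lower. Of 6 immune markers 2 had rows. Their sum was 9.04 and 7.52 CPM in growth medium, 16.7 to 22.4 with shControl-CM and 13.0 to 23.1 with shBrca2-CM, with 1 called higher with each. The part of these marker levels in the results below was not tested. In RNA of whole domes, fewer cells of one type and less RNA per cell cannot be told apart.

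Against growth medium, more of these genes were higher than lower with both conditioned media. Calls are from edgeR's quasi-likelihood test over all genes, at an adjusted p under 0.1 together with a log2 fold change beyond 0.5 in either direction and more than 5 normalized counts on average. SE is the standard error of a log2 fold change. With shControl-CM, 15 of 30 (50%) were called higher, where 18.2% of all 12086 genes tested were called higher, and 1 was called lower, where 18.9% of all genes were. With shBrca2-CM, 12 of 30 (40%) were called higher, against 18.6% of all 12049 genes, and 4 (13.3%) lower, against 19.2%. The median log2 fold change of the 30 genes was 0.55 with shControl-CM and 0.25 with shBrca2-CM. Over all genes tested it was -0.10 and -0.05, respectively. The groups did not overlap for 17 of the 30 genes (56.7%) with shControl-CM, beside 59.9% of all genes. With shBrca2-CM this held for 22 (73.3%), beside 57.4%, so groups without overlap were common over all genes. The 2 growth medium libraries entered both comparisons, so the values are given side by side, and a gene called with both is not thereby supported by independent samples.

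**Figure D1:**
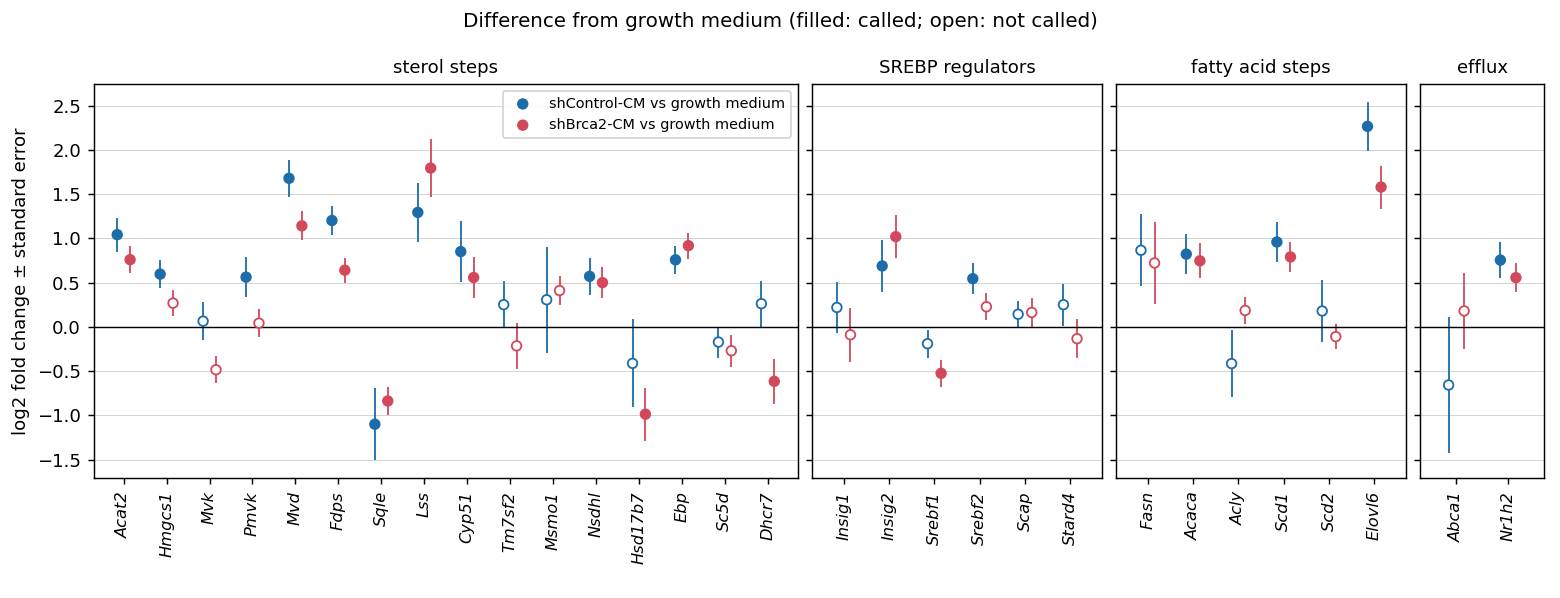
Log2 fold change against growth medium (y axis) of each of the 30 genes (x axis, by group of genes), with shControl-CM in blue and shBrca2-CM in red. Bars are standard errors from edgeR; filled points were called and open points were not. Elovl6 stands highest with shControl-CM, at 2.27, and Sqle lowest, at -1.10, while most sterol enzymes from Acat2 to Ebp lie above 0.

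The enzymes that lead to mevalonate and farnesyl diphosphate come first in the route. Fdps, on chromosome 3 (89093588 to 89101967 in GRCm38.p6, the RefSeq annotation of mm10), makes farnesyl diphosphate, the branch point to sterols and to prenylated proteins. Its level was 357 and 442 CPM in the growth medium libraries, 856, 955 and 963 CPM with shControl-CM and 577, 635 and 652 CPM with shBrca2-CM. The 3 groups did not overlap, and shBrca2-CM lay between the others. The log2 fold change against growth medium was 1.20 with shControl-CM (SE 0.16, adjusted p = 0.000518 by edgeR) and 0.64 with shBrca2-CM (SE 0.14, adjusted p = 0.000151 by edgeR).

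Mvd, mevalonate diphosphate decarboxylase, showed the largest increase among the sterol enzymes with shControl-CM. It was at 74.6 and 96.3 CPM in growth medium, 220.4, 273 and 332 CPM with shControl-CM and 156, 168 and 233 CPM with shBrca2-CM. Every conditioned medium library was above both growth medium libraries, while the conditioned media overlapped. Its level was 3.21-fold higher with shControl-CM (log2 fold change 1.68, SE 0.21, adjusted p = 0.000353 by edgeR) and 2.21-fold higher with shBrca2-CM (log2 fold change 1.14, SE 0.16, adjusted p = 4.48e-08 by edgeR). Acat2, the thiolase that joins acetyl-CoA units at the start of the route, was at 104 and 106 CPM in growth medium, 265, 181 and 202 CPM with shControl-CM and 189.5, 170.5 and 172 CPM with shBrca2-CM. It rose with both media, 2.06-fold with shControl-CM (edgeR adjusted p = 0.00302) and 1.69-fold with shBrca2-CM (edgeR adjusted p = 3.94e-05).

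Hmgcs1, the cytosolic HMG-CoA synthase, was called with shControl-CM and not with shBrca2-CM. Its level was 185 and 179.7 CPM in growth medium, 242, 305 and 285 CPM with shControl-CM and 198, 230.2 and 227 CPM with shBrca2-CM, 3 ranges that did not overlap. The log2 fold change was 0.60 with shControl-CM (SE 0.16, adjusted p = 0.0184 by edgeR) and 0.27 with shBrca2-CM (SE 0.15, adjusted p = 0.137 by edgeR). The shControl-CM call was lost with total counts (0.48) and without growth medium replicate 1 or 2 (edgeR adjusted p = 0.117 and 0.129), and with the transcripts' GC content in the offsets of the fit, an alternative described further on, Hmgcs1 was also called with shBrca2-CM (0.56, edgeR adjusted p = 0.000838). Of the mevalonate kinases, Pmvk was called with shControl-CM and Mvk with neither medium. Pmvk, phosphomevalonate kinase, was at 107 and 145 CPM in growth medium, 179, 142 and 236 CPM with shControl-CM and 113, 128 and 143 CPM with shBrca2-CM. It was called higher with shControl-CM (log2 fold change 0.56, edgeR adjusted p = 0.0807) although 1 shControl-CM library lay below the higher growth medium library, and it had a log2 fold change of 0.04 with shBrca2-CM (95% confidence interval -0.28 to 0.36). Mvk, mevalonate kinase, was at 139 and 151 CPM in growth medium, 110.2, 156 and 193 CPM with shControl-CM and 106, 97.1 and 107 CPM with shBrca2-CM. Neither difference of Mvk was called, and with shBrca2-CM its adjusted p of 0.00968 went with a log2 fold change of -0.48, just short of the size threshold. It passed, as lower, without growth medium replicate 1 (-0.54), without shBrca2-CM replicate 1 or 3 (-0.50 and -0.52) and with no count filter (-0.51).

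At squalene the direction turned. Sqle, squalene epoxidase (chromosome 15, 59315092 to 59331193), makes the first oxygenated sterol precursor and is a control point of the route. It was at 148 and 156 CPM in growth medium, 127, 51.2 and 31.9 CPM with shControl-CM and 85.4, 97.1 and 74.6 CPM with shBrca2-CM. All conditioned medium libraries were below both growth medium libraries, and the shControl-CM libraries spread more widely than the shBrca2-CM ones. Sqle fell by 1.10 on the log2 scale with shControl-CM (SE 0.41, adjusted p = 0.0636 by edgeR) and by 0.84 with shBrca2-CM (SE 0.16, adjusted p = 2.03e-05 by edgeR).

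Lss, lanosterol synthase, which closes the sterol rings after Sqle, rose. It was at 6.08 and 6.02 CPM in growth medium, 17.9, 15.5 and 11.5 CPM with shControl-CM and 20.3, 13.7 and 27.5 CPM with shBrca2-CM. The log2 fold change was 1.30 with shControl-CM (SE 0.33, adjusted p = 0.0147 by edgeR) and 1.80 with shBrca2-CM (SE 0.32, adjusted p = 7.55e-06 by edgeR). The conditioned media overlapped.

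Among the enzymes that turn lanosterol into cholesterol, Ebp, Nsdhl and Cyp51 rose with both media. Ebp, the isomerase that moves a ring double bond, was at 169 and 139.5 CPM in growth medium, 268, 264 and 255 CPM with shControl-CM and 292, 306 and 278 CPM with shBrca2-CM, with log2 fold changes of 0.76 (edgeR adjusted p = 0.00586) and 0.92 (edgeR adjusted p = 6.46e-07). Nsdhl, which takes part in removing methyl groups from the ring, was at 53.2 and 51.6 CPM in growth medium, 91.6, 82.1 and 61.1 CPM with shControl-CM and 69.4, 73.4 and 78.1 CPM with shBrca2-CM, with log2 fold changes of 0.57 (edgeR adjusted p = 0.0586) and 0.50 (edgeR adjusted p = 0.0181). Cyp51, lanosterol demethylase, was at 20.9 and 20.6 CPM in growth medium, 43.6, 50.2 and 20.4 CPM with shControl-CM and 31.8, 29.9 and 30.2 CPM with shBrca2-CM. For Cyp51 the log2 fold change reached 0.85 after shControl-CM (edgeR adjusted p = 0.0811), where replicate 3 lay just below both growth medium libraries, and 0.56 with shBrca2-CM (edgeR adjusted p = 0.053).

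Hsd17b7 and Dhcr7 were called lower with shBrca2-CM and not called with shControl-CM. Dhcr7, the reductase of the last step of one branch of the route, was at 26.1 and 33.5 CPM in growth medium, 28.8, 45.4 and 34.6 CPM with shControl-CM and 15.9, 17.4 and 23.1 CPM with shBrca2-CM. All 3 shBrca2-CM libraries lay below every library of the other groups. Dhcr7 fell by 0.62 on the log2 scale against growth medium with shBrca2-CM (SE 0.25, adjusted p = 0.0467 by edgeR), and its log2 fold change with shControl-CM was 0.26 (95% confidence interval -0.31 to 0.84). Hsd17b7, a ketosteroid reductase of the demethylation complex, was at 24.9 and 22.6 CPM in growth medium, 34.6, 10.6 and 6.79 CPM with shControl-CM and 15.9, 14.9 and 7.10 CPM with shBrca2-CM. It fell by 0.99 on the log2 scale with shBrca2-CM (edgeR adjusted p = 0.00611), while the shControl-CM libraries lay on both sides of growth medium.

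The other 3 sterol enzymes were not called against growth medium. Msmo1, a methyl sterol oxidase, was at 97.3 and 99.3 CPM in growth medium, 202, 145 and 19.02 CPM with shControl-CM and 142, 152 and 103 CPM with shBrca2-CM, so shControl-CM replicate 3 was far below every other library. For Msmo1 the log2 fold change was 0.31 after shControl-CM (95% confidence interval -1.02 to 1.64) and 0.41 with shBrca2-CM (edgeR adjusted p = 0.0357, under the size threshold). With shBrca2-CM it was called higher in thinned libraries (0.67), with GC content in the offsets (0.67) and without shBrca2-CM replicate 3 (0.58). Sc5d, a sterol desaturase, was at 76.99 and 67.7 CPM in growth medium and at 52.4 to 68.6 CPM over the conditioned medium libraries, with 95% confidence intervals of -0.56 to 0.22 with shControl-CM and -0.63 to 0.09 with shBrca2-CM on the log2 scale. In thinned libraries Sc5d was called lower with shBrca2-CM (-0.53, edgeR adjusted p = 0.0647). Tm7sf2, a sterol reductase, was at 23.8 and 21.1 CPM in growth medium and at 17.4 to 33.3 CPM over the conditioned medium libraries. Its 95% confidence intervals were -0.35 to 0.85 with shControl-CM and -0.74 to 0.31 with shBrca2-CM.

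By group, 9 of 16 sterol enzymes (56.2%) were called higher and 1 (6.25%) lower with shControl-CM, and 7 (43.8%) were called higher and 3 (18.8%) lower with shBrca2-CM, beside the shares over all genes given above. The median log2 fold change of the group was 0.57 with shControl-CM and 0.34 with shBrca2-CM. Summed over the 16 enzymes, the level was 1612 and 1737 CPM in growth medium, 2746 to 2783 CPM with shControl-CM and 2096 to 2230 CPM with shBrca2-CM, 3 ranges that did not overlap.

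**Figure D2:**
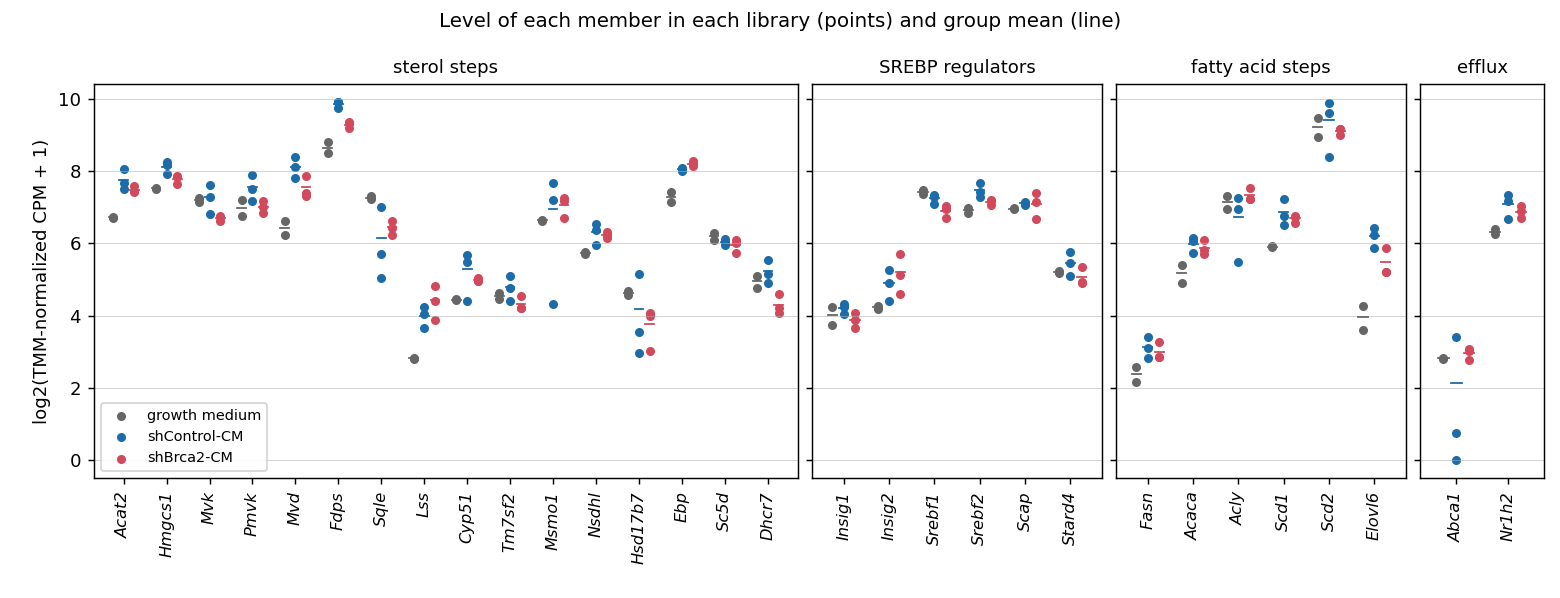
Level of each of the 30 genes in each library, as log2(CPM + 1) on the y axis, by gene on the x axis; points are libraries (grey, growth medium; blue, shControl-CM; red, shBrca2-CM) and short lines are group means. Fdps, Mvd and Acat2 show the growth medium libraries below all others, Sqle shows them above all others, Msmo1 and Acly show a single blue point far below the rest, and Abca1 shows a pair of them.

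Of the 6 regulators, 2 were called higher and 0 lower with shControl-CM, and 1 higher and 1 lower with shBrca2-CM. The latter is 16.7% in each direction, near the 18.6% and 19.2% of all genes. Insig2, which retains SCAP in the endoplasmic reticulum, was at 18.4 and 17.2 CPM in growth medium, 37.2, 28.99 and 20.4 CPM with shControl-CM and 23.1, 51.02 and 33.7 CPM with shBrca2-CM. It was called higher with both media, with log2 fold changes of 0.69 (SE 0.30, adjusted p = 0.0984 by edgeR) and 1.02 (SE 0.24, adjusted p = 0.000546 by edgeR). Insig1, its paralog and itself a known SREBP target, was at 12.3 and 17.8 CPM in growth medium, 17.9, 15.5 and 19.02 CPM with shControl-CM and 11.6, 13.7 and 15.98 CPM with shBrca2-CM, and was not called with either medium.

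Of the SREBP genes, Srebf2 was called with shControl-CM and Srebf1 with shBrca2-CM. Srebf2 was at 113 and 126 CPM in growth medium, 154, 170.1 and 203 CPM with shControl-CM and 145, 143 and 133 CPM with shBrca2-CM, and each conditioned medium library was above both growth medium libraries. It was called higher with shControl-CM (log2 fold change 0.55, edgeR adjusted p = 0.0354) and not with shBrca2-CM (0.23, 95% confidence interval -0.08 to 0.53). Srebf1 was at 164 and 177 CPM in growth medium, 135, 155 and 162 CPM with shControl-CM and 122, 103 and 129 CPM with shBrca2-CM, with all conditioned medium libraries below growth medium. It was called lower with shBrca2-CM (log2 fold change -0.52, edgeR adjusted p = 0.00451) and not with shControl-CM (-0.19, 95% confidence interval -0.54 to 0.16). Scap, at 125 and 122 CPM in growth medium and 101 to 167 CPM over the conditioned medium libraries, and Stard4, a sterol transfer protein, at 34.9 and 36.5 CPM and 28.9 to 53.1 CPM, were not called.

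Of the 6 fatty acid enzymes, Elovl6, Scd1 and Acaca were called higher with both conditioned media and none was called lower. That is 50% higher with each medium, beside 18.2% of all genes with shControl-CM and 18.6% with shBrca2-CM. Elovl6 lengthens saturated fatty acids. It was at 18.2 and 11.2 CPM in growth medium, 57.02, 74.4 and 84.9 CPM with shControl-CM and 36.2, 36.1 and 57.7 CPM with shBrca2-CM, and no conditioned medium library came near growth medium. Its log2 fold change, the largest of the 30 genes with shControl-CM, was 2.27 there (SE 0.28, adjusted p = 0.000314 by edgeR) and 1.58 with shBrca2-CM (SE 0.24, adjusted p = 2.85e-07 by edgeR).

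Scd1 and Scd2 are neighbouring stearoyl-CoA desaturase genes on chromosome 19 (44394450 to 44407709 and 44293676 to 44306864). Scd1 was at 59.6 and 58.7 CPM in growth medium, 149, 106 and 90.3 CPM with shControl-CM and 94.03, 107 and 105 CPM with shBrca2-CM. Scd1 rose 1.95-fold with shControl-CM (edgeR adjusted p = 0.00968) and 1.73-fold with shBrca2-CM (edgeR adjusted p = 8.79e-05). Scd2 was at 491 and 704 CPM in growth medium, 935, 773 and 330.1 CPM with shControl-CM and 570.0, 511 and 575 CPM with shBrca2-CM, and was not called with either (95% confidence intervals -0.60 to 0.96 and -0.39 to 0.17 on the log2 scale). How reads shared by these paralogs were counted is not given in the sources used here, and the difference between the genes was not tested.

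Acaca, acetyl-CoA carboxylase, which commits acetyl-CoA to fatty acids, was at 29.2 and 41.1 CPM in growth medium, 52.5, 65.7 and 69.3 CPM with shControl-CM and 54.97, 51.02 and 67.5 CPM with shBrca2-CM. For Acaca the log2 fold change was 0.82 (edgeR adjusted p = 0.02) with shControl-CM and 0.75 (edgeR adjusted p = 0.00187) with shBrca2-CM. Fasn, fatty acid synthase, was low, at 3.48 and 4.94 CPM in growth medium, 7.69, 9.66 and 6.11 CPM with shControl-CM and 8.68, 6.22 and 6.21 CPM with shBrca2-CM. Its log2 fold changes of 0.87 and 0.72 did not pass (edgeR adjusted p = 0.126 and 0.221). Acly, ATP citrate lyase, which supplies cytosolic acetyl-CoA to both routes, was at 123 and 157 CPM in growth medium, 152, 122 and 43.5 CPM with shControl-CM and 184, 148 and 148 CPM with shBrca2-CM, and was not called. The median log2 fold change of the 6 enzymes was 0.84 with shControl-CM and 0.74 with shBrca2-CM.

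Of the efflux genes, Nr1h2, the liver X receptor beta, rose, and Abca1, the cholesterol exporter, was not called. Nr1h2 was at 74.9 and 83.4 CPM in growth medium, 101, 143 and 159.6 CPM with shControl-CM and 129, 103 and 117 CPM with shBrca2-CM, with log2 fold changes of 0.76 (edgeR adjusted p = 0.0198) and 0.56 (edgeR adjusted p = 0.00414). Abca1 was at 6.08 and 6.02 CPM in growth medium, 5.79, 7.47 and 7.10 CPM with shBrca2-CM and 9.61, 0 and 0.679 CPM with shControl-CM, where replicates 2 and 3 were at or under the floor of 3 counts. Neither difference of Abca1 was called, with shControl-CM libraries that spread from 0 to 9.61 CPM (95% confidence intervals -2.37 to 1.06 with shControl-CM and -0.67 to 1.03 with shBrca2-CM).

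The calls against growth medium did not all rest on as much. In each of the 5 fits that left out 1 library, Acat2, Mvd, Fdps, Ebp and Elovl6, 5 of the 15, were called higher with shControl-CM. With shBrca2-CM the 8 of 12 called higher in every such fit were Acat2, Mvd, Lss, Ebp, Insig2, Acaca, Scd1 and Elovl6, and of the 4 called lower it was Sqle. With shControl-CM most other calls depended on the growth medium libraries: without replicate 1 the members called were 5 higher and 0 lower, and without replicate 2 they were 6 higher and 0 lower. These fits called 16.7% and 20% of the members higher, beside 8.8% and 10.3% of all genes, so calls fell over all genes as well. With total counts the shControl-CM calls of Hmgcs1, Pmvk, Cyp51, Nsdhl, Insig2 and Srebf2 were lost. With DESeq2's likelihood ratio test, as used in the study, those lost were Pmvk, Cyp51 and Insig2 with shControl-CM (DESeq2 adjusted p = 0.132, 0.136 and 0.187) and Cyp51, Dhcr7 and Nsdhl with shBrca2-CM (0.166, 0.153 and 0.0713, the last with a log2 fold change of 0.499). The fall of Sqle with shControl-CM was not called without growth medium replicate 1 or 2 (log2 fold change -1.13 and -1.07). Nor was it called without shControl-CM replicate 2 (-0.93, edgeR adjusted p = 0.224) or in libraries thinned to a like depth (-0.99, edgeR adjusted p = 0.125). Over the 5 fits that left out 1 library it was -1.90 to -0.72. With shBrca2-CM, Hsd17b7 was not called without shBrca2-CM replicate 3 (log2 fold change -0.62), and Dhcr7 was not called without growth medium replicate 2 or without shBrca2-CM replicate 1 or 2 (-0.42, -0.53 and -0.55). Srebf1 was not called without growth medium replicate 2 or shBrca2-CM replicate 2 (-0.46 and -0.44). Fdps and Nr1h2 fell short of the size threshold with shBrca2-CM without growth medium replicate 1 (0.497 and 0.48), as did Nr1h2 without shBrca2-CM replicate 1 (0.48) and Nsdhl without growth medium replicate 2 or shBrca2-CM replicate 3 (0.49 and 0.45). Cyp51 had an edgeR adjusted p of 0.102, 0.123 and 0.126 without growth medium replicate 1 and shBrca2-CM replicates 1 and 3. Among the shControl-CM libraries, leaving out replicate 1 ended the calls of Insig2 and Nsdhl (log2 fold change 0.44 each) and called Hsd17b7 (-1.49), Acly (-0.81) and Abca1 (-3.80) lower. Leaving out replicate 2 ended those of Cyp51, Insig2, Nsdhl and Srebf2, and leaving out replicate 3 those of Pmvk (0.37) and Srebf2 (0.43).

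Between the conditioned media, the question is whether silencing Brca2 in the organoids altered these genes in the PSCs. Fdps was the only one of the 30 genes called: 1 of 30 (3.33%) was lower with shBrca2-CM, where 1.55% of all 11035 genes tested were called lower, and 0 were higher, where 1.58% were. At an unadjusted p under 0.05 by edgeR there were 7 of 30 (23.3%), beside 13.4% of all genes, and DESeq2's likelihood ratio test called 1 lower, beside 1.4% of all genes. Fdps was at 577, 635 and 652 CPM with shBrca2-CM and 856, 955 and 963 CPM with shControl-CM, with every shBrca2-CM library below every shControl-CM library. It was 1.46-fold lower (log2 fold change -0.55, SE 0.12, 95% confidence interval -0.80 to -0.30, adjusted p = 0.0286 by edgeR). The call of Fdps was lost without shBrca2-CM replicate 1, 2 or 3 (edgeR adjusted p = 0.182, 0.16 and 0.121) and without shControl-CM replicate 2 (0.17), with log2 fold changes of -0.62 to -0.50 over the 6 fits. With scaling by total counts its log2 fold change of -0.43 (edgeR adjusted p = 0.059) was under the size threshold. Of the cell type markers, Pdgfra (0.85) and Krt19 (2.12) were called higher and Dcn (-0.93) and Lum (-1.59) lower with shBrca2-CM than with shControl-CM on the log2 scale, and their part in this comparison was not tested.

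Between these media the log2 fold change was negative for 22 of the 30 genes (19 with scaling by total counts and 18 without shControl-CM replicate 1), with a median of -0.27 where that of all genes tested was 0.03. The 6 enzymes from acetyl-CoA to farnesyl diphosphate all had negative values. These were -0.27 for Acat2, -0.31 for Hmgcs1, -0.53 for Mvk, -0.51 for Pmvk, -0.53 for Mvd and -0.55 for Fdps, and all but Fdps were not called, with edgeR adjusted p of 0.208 (Mvd) to 0.531 (Acat2). Further along the route the values were of both signs: 0.28 for Sqle, 0.50 for Lss, 0.18 for Ebp and 0.13 for Msmo1, and -0.88 for Dhcr7, -0.52 for Hsd17b7, -0.46 for Tm7sf2, -0.28 for Cyp51, -0.07 for Sc5d and -0.06 for Nsdhl, none of them called. The value for Dhcr7 was the largest in size among the sterol enzymes (SE 0.28, adjusted p = 0.164 by edgeR), and the groups did not overlap. That for Hsd17b7 ranged from -0.98 to 0.51 over the 6 fits that left out 1 library. Sqle, Msmo1, Sc5d and Nsdhl also took both signs over these fits.

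**Figure D3:**
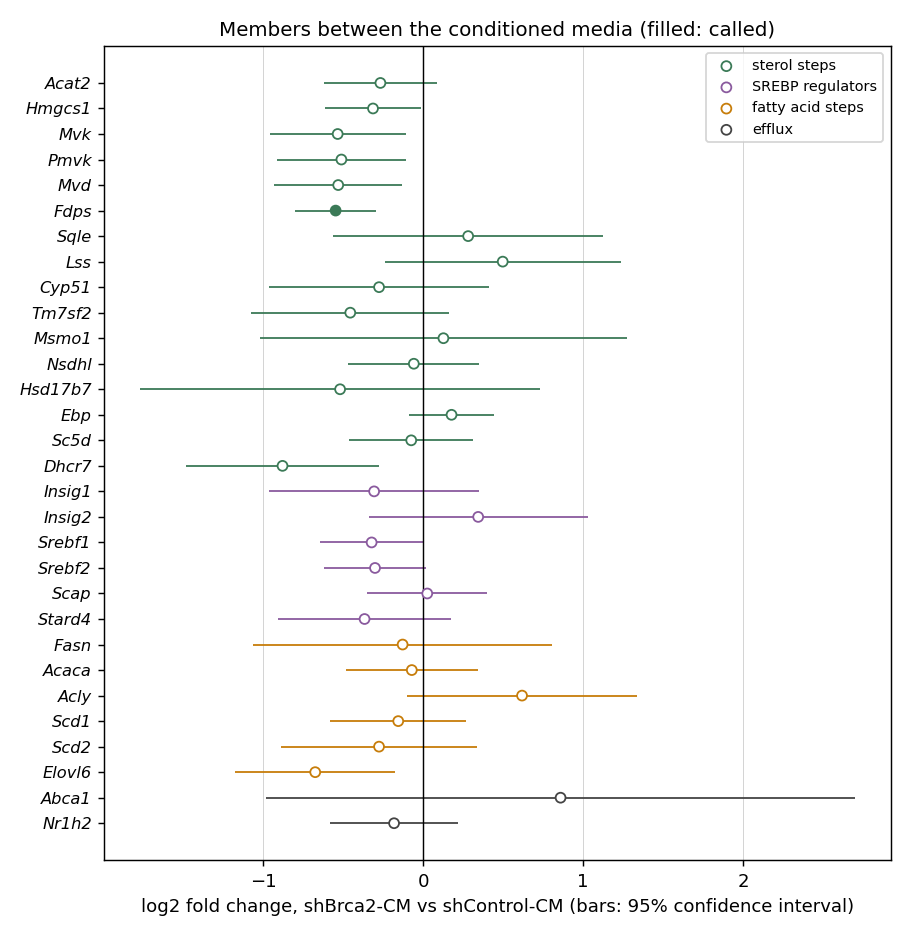
Difference between the conditioned media (x axis, log2 of shBrca2-CM over shControl-CM) for each of the 30 genes (y axis, in the order of the route), coloured by group of genes. Bars are 95% confidence intervals; the filled point was called. Fdps is the filled point, at -0.55, and the first 6 sterol enzymes, Acat2 to Fdps, all lie below 0.

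Among the regulators, the 3 shBrca2-CM libraries lay below the 3 shControl-CM libraries for Srebf1 and Srebf2. The log2 fold change was -0.32 for Srebf1 (95% confidence interval -0.65 to 0.00, edgeR adjusted p = 0.381) and -0.30 for Srebf2 (95% confidence interval -0.62 to 0.02, edgeR adjusted p = 0.416), and neither was called. Insig2 had a value of 0.34 and Insig1 of -0.31, with intervals that held 0. Of the fatty acid enzymes, Elovl6 had the largest negative value, -0.67 (SE 0.23, adjusted p = 0.203 by edgeR). Acly had the largest positive one, 0.62 (SE 0.33, adjusted p = 0.467 by edgeR). Over the 6 fits that left out 1 library these values were -0.96 to -0.53 and 0.22 to 0.997. In all, 7 of the 30 genes (23.3%) had groups that did not overlap, 6 lower and 1 higher with shBrca2-CM, where 19.8% of all genes tested had none. These were Hmgcs1, Mvk, Fdps, Dhcr7, Srebf1 and Srebf2, and Ebp as the higher one.

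The shControl-CM libraries differed among themselves in these genes. The ratio of the highest to the lowest of the 3 libraries was over 2 for 6 genes with shControl-CM, not counting Abca1 with its library at 0, and for 3 genes with shBrca2-CM. The median ratio was 1.58 with shControl-CM and 1.27 with shBrca2-CM. In shControl-CM replicate 3, Msmo1 stood at 0.11 times the mean of replicates 1 and 2, Hsd17b7 at 0.30 and Acly at 0.32. Sqle stood at 0.36, Scd2 at 0.39 and Cyp51 at 0.43 times that mean, while Mvd, Mvk and Pmvk stood above it. For Sqle and Hsd17b7 replicate 2 was nearer to replicate 3 than to replicate 1, which was the highest. Abca1 was lowest in replicate 2. Without shControl-CM replicate 3, Scd2 was called lower with shBrca2-CM than with shControl-CM (log2 fold change -0.62, edgeR adjusted p = 0.0063), and the sign for Sqle turned from 0.28 to -0.11 and that for Msmo1 from 0.13 to -0.41. Without shControl-CM replicate 1, 7 genes were called: Fdps, Mvd, Mvk, Dhcr7 and Elovl6 lower and Sqle and Acly higher with shBrca2-CM. That was 16.7% of the members lower and 6.67% higher, in a fit that called 4.38% of all genes lower and 4.71% higher. Against growth medium, leaving out shControl-CM replicate 3 gave calls for Msmo1 (0.83, edgeR adjusted p = 0.00088), Scd2 (0.52, 0.0232) and Fasn (1.03, 0.0908).

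**Figure D4:**
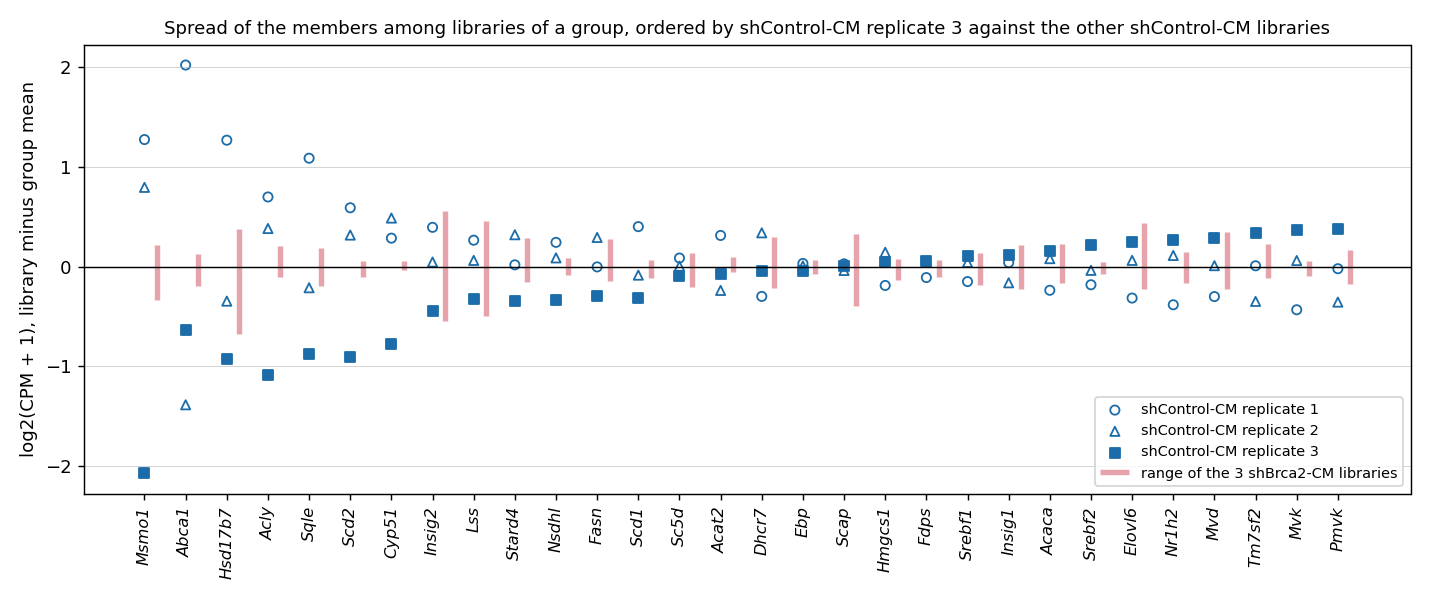
Level of each of the 30 genes in the 3 shControl-CM libraries (blue markers) as log2(CPM + 1) minus the group mean (y axis), with the range of the shBrca2-CM libraries about their own mean (red bars); genes on the x axis are ordered by the ratio of shControl-CM replicate 3 to the other shControl-CM libraries. Msmo1, Abca1, Hsd17b7, Acly, Sqle, Scd2 and Cyp51, on the left, show replicate 3 (squares) well below 0, while most other genes lie close to 0.

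Libraries also differed with the GC content of the transcript. Each library's log2 deviation from the others of its group was set against GC content across 7983 genes, which are not independent replicates. Spearman's rho was -0.36 in shControl-CM replicate 1, 0.31 in shControl-CM replicate 3 and -0.20 to 0.21 in the shBrca2-CM libraries. It was -0.27 and 0.27 in growth medium replicates 1 and 2. Differences of group means from growth medium had a rho of 0.26 with shControl-CM and 0.21 with shBrca2-CM. For the difference of shBrca2-CM from shControl-CM it was -0.17. With GC content in the offsets of the fit, an alternative chosen after seeing the data, 14 genes were called higher and 1 lower with shControl-CM against growth medium, 13 higher and 4 lower with shBrca2-CM, and 1 lower between the conditioned media. The shares called higher were 46.7% with shControl-CM, beside 21.1% of all genes, and 43.3% with shBrca2-CM, beside 22% of all genes. With shControl-CM these offsets gave a call of Stard4 (0.71, edgeR adjusted p = 0.0409) and ended those of Pmvk (0.45) and Srebf2 (0.40). With shBrca2-CM they gave calls of Hmgcs1 and Msmo1 and ended that of Nr1h2 (0.42). Between the conditioned media the gene called was again Fdps, at -0.52 (edgeR adjusted p = 0.0265). The part of the library itself in the low values of shControl-CM replicate 3, or the high ones of replicate 1, was not tested.

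Other genes of the same routes were counted by list, beside 18.2% of all genes called higher and 18.9% lower with shControl-CM and 18.6% and 19.2% with shBrca2-CM. Of 5 further sterol synthesis genes, 2 were called higher and 0 lower with shControl-CM against growth medium, and 2 higher and 0 lower with shBrca2-CM. Of 23 further fatty acid genes with a row, 9 were higher and 5 lower with shControl-CM, and 7 higher and 6 lower with shBrca2-CM. Of 6 further regulators of SREBP processing, 1 was higher and 1 lower with shControl-CM and 0 and 1 with shBrca2-CM. Of 12 sterol traffic genes, 2 were higher and 2 lower with shControl-CM and 3 and 1 with shBrca2-CM. Of 5 further liver X receptor genes, 2 were higher and 1 lower with shControl-CM and 1 and 1 with shBrca2-CM.

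Those with the largest changes were named by rule. Acsl4, which activates polyunsaturated fatty acids, was at 10.3 and 8.81 CPM in growth medium, 78.2, 82.1 and 33.96 CPM with shControl-CM and 50.6, 46.04 and 46.2 CPM with shBrca2-CM, with log2 fold changes of 2.74 (edgeR adjusted p = 0.000592) and 2.30 (edgeR adjusted p = 7.41e-12). Mlxipl, a sugar-sensing transcription factor of fatty acid synthesis, was near the floor, at 1.22 and 0.430 CPM in growth medium, 5.13, 2.90 and 4.07 CPM with shControl-CM and 5.79, 4.98 and 4.44 CPM with shBrca2-CM (log2 fold changes 2.21 and 2.47). Gpam, which starts glycerolipid synthesis, was at 19.99 and 19.3 CPM in growth medium, 8.33, 5.80 and 2.72 CPM with shControl-CM and 2.89, 6.22 and 6.21 CPM with shBrca2-CM. Gpam fell by 1.80 on the log2 scale with shControl-CM (edgeR adjusted p = 0.0063) and by 1.88 with shBrca2-CM (edgeR adjusted p = 3.11e-05). Ggps1, which uses farnesyl diphosphate to make the prenyl group of proteins, was at 1.56 and 0.430 CPM in growth medium and 7.23, 9.96 and 5.33 CPM with shBrca2-CM (log2 fold change 2.74, edgeR adjusted p = 0.000251), with 1.28, 0 and 1.36 CPM with shControl-CM. Between the conditioned media Ggps1 had a fitted log2 fold change of 2.81 (95% confidence interval 1.27 to 4.34, edgeR adjusted p = 0.0704) and groups that did not overlap, but it was not called, since its mean normalized count of 4.51 was under the minimum of 5.

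Between the conditioned media, 2 of the 49 further genes tested were called, 1 higher (2.04%, beside 1.58% of all genes) and 1 lower (2.04%, beside 1.55%), near the shares of all genes. Dgat2, which makes triglyceride, was at 47.7, 37.3 and 48.8 CPM with shBrca2-CM, 87.8, 93.7 and 123 CPM with shControl-CM, as against 30.6 and 25.4 CPM in growth medium, with a log2 fold change of -1.15 between the conditioned media (SE 0.20, adjusted p = 0.00813 by edgeR). Npc2, which carries cholesterol out of lysosomes, went the other way, at 54.97, 62.2 and 44.4 CPM with shBrca2-CM and 32.7, 25.1 and 28.5 CPM with shControl-CM (log2 fold change 0.91, SE 0.22, adjusted p = 0.0627 by edgeR). Npc2 was not called by DESeq2's likelihood ratio test (DESeq2 adjusted p = 0.153).

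Promoters of the members were read from RefSeq (GRCm38.p6, the assembly of mm10) as 250 bases before to 50 bases after each start listed for a gene. A listed start need not be the gene's outermost one, and Insig2, Dhcr7 and Srebf1 had 3 each. The only Acaca window, from 84195188 on chromosome 11, lay inside the gene, which begins at 84129635. Of the 30 genes 25 matched, with 33 promoters in all. Fdps, Sqle, Scd1, Scd2 and Stard4 had no entry. They were searched on both strands for 3 motifs. The first, a sterol regulatory element, was spelled TCACNCCAC. NF-Y and Sp1 are known partners of SREBP at its targets. The letters used for the box of NF-Y were CCAAT. For the box of Sp1 the letters were GGGCGG. Overlapping matches were all kept. The NF-Y box stood in 20 of 33 member promoters (60.6%), in 13 of 17 promoters of the sterol enzymes (76.5%) and in 37.4% of all 32851 promoters. The Sp1 box stood in 24 of 33 (72.7%), 14 of 17 (82.4%) and 35.7% of all. Among the 12339 promoters of genes in the count table, the NF-Y box stood in 37.7% and the Sp1 box in 62.9%. The sterol regulatory element letters stood in 1 of 33 (3.03%) and in 1.24% of all promoters. A match describes letters only, and no match says only that these letters are not in the window.

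The promoters of 4 genes are shown for the range of responses. Hmgcs1 was the only one of the 25 genes searched with the sterol regulatory element letters. Mvd and Lss were the sterol enzymes with the largest increase with shControl-CM and with shBrca2-CM. Elovl6 was the fatty acid enzyme with the largest increase. Capitals mark the motif matches, on either strand.
Hmgcs1, chr13:119690101-119690400 (+ strand): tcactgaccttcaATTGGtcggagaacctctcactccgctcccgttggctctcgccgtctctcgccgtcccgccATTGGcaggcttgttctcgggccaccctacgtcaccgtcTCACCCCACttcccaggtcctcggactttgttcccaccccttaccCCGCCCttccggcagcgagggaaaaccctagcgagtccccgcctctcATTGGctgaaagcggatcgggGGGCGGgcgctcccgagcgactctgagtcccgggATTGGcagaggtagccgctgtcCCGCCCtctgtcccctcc
Mvd, chr8:122443373-122443672 (- strand): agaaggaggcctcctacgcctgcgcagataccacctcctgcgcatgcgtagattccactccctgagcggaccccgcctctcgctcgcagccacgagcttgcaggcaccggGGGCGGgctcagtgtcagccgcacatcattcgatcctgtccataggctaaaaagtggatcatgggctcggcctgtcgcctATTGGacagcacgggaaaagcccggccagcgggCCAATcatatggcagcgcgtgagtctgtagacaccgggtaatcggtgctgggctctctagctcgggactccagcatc
Lss, chr10:76531355-76531654 (+ strand): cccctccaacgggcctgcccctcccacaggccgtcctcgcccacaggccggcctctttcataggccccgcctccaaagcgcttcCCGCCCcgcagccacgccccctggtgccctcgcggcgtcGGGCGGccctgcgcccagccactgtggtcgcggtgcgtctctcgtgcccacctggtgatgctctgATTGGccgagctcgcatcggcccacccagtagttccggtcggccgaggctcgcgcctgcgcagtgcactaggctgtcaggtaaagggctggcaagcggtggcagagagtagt
Elovl6, chr3:129532136-129532435 (+ strand): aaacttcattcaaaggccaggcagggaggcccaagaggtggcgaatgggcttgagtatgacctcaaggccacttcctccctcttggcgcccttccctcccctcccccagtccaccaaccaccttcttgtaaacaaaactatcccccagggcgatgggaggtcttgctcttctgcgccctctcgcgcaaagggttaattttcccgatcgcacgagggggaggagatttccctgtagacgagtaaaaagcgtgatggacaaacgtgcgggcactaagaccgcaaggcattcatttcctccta
Positions are counted from the listed start of each window. In Hmgcs1 the letters TCACCCCAC begin at position -137, on the strand of the gene. The NF-Y box stood there at 4 places on the opposite strand. Mvd held the NF-Y box at -27 on its own strand and at -60 on the opposite strand, with the Sp1 box at -140. Lss held the NF-Y box at -62 on the opposite strand. Elovl6 held none of the 3 motifs, and its RNA rose most of the 30 genes with shControl-CM.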

How the data were processed

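RNA of 8 samples in 3 groups was sequenced as MARS-seq libraries (3′ ends of mRNA). The table the authors deposited gives raw counts, not normalized, of 12160 genes in each dome. The submitters' processing notes name bcl2fastq, cutadapt, STAR 2.4.2a, HTSeq, DESeq2 and the build mm10. The treatment of molecular identifiers, the annotation, the use of strand and the rule for listing genes are not given in the sources used here, so the overlapping genes Tm7sf2 and Vps51, Srebf1 and Rai1, and Acaca and Tada2a may share reads. Of the per-sample columns, 1 matched no sample and was not used, and samples were grouped by their recorded treatment. The titles' numbers were used as replicate numbers.

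Each pair of groups was fitted alone in R 4.3.3 with edgeR 4.0.16 by its quasi-likelihood test, with TMM factors and on genes whose counts summed to 10 or more; p-values were adjusted by Benjamini-Hochberg over all genes of the comparison. Genes were called at the study's thresholds: adjusted p under 0.1, absolute log2 fold change over 0.5 and mean normalized count over 5. Standard errors are the log2 fold change over the root of the test's F. CPM values used TMM factors over all 8 libraries. The members and the gene lists were chosen with earlier results of these data known. All members were described, and of other pathway genes up to 4 per comparison with the largest change among those called were named. Of the other pathway genes, 2 are not reported here. Alternatives were DESeq2 1.42.0 (likelihood ratio and Wald tests), DESeq2's size factors or total counts, other filters and thresholds, all groups in 1 fit, a replicate block, thinned libraries, each library left out and, added after seeing the data, GC content in the offsets.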

Additional observations from a re-analysis of the deposited data

Results flagged for a closer look

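A tested difference between the conditioned media marked 3 of the 79 genes of these routes that were tested (3.8%, beside 3.13% of all genes). With shBrca2-CM relative to shControl-CM, the log2 fold change was -0.55 for Fdps, the only one of the 30 genes, -1.15 for Dgat2 and 0.91 for Npc2, each below or above in 3 of 3 libraries against 3 of 3. Against growth medium, Fdps and Dgat2 were called higher with both conditioned media and Npc2 with shBrca2-CM, and the call of Dgat2 with shBrca2-CM was lost in thinned libraries (log2 fold change 0.45, edgeR adjusted p = 0.254). Over the 6 fits that left out 1 library, the edgeR adjusted p was 0.00143 to 0.088 for Dgat2, 0.0284 to 0.307 for Npc2 and 0.00675 to 0.182 for Fdps. The call of Npc2 was lost with both DESeq2 tests (DESeq2 adjusted p = 0.153 by likelihood ratio and 0.158 by Wald) and without shBrca2-CM replicate 1 or 2 or shControl-CM replicate 2, and that of Fdps without these or shBrca2-CM replicate 3. With groups of 2 and 3 libraries, single outlying libraries were not tested for.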

How the results depend on the processing

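Between the conditioned media the count of genes called, 1, was 0 with total counts or with the stricter thresholds (adjusted p under 0.05, absolute log2 fold change over 1), 2 with the replicate block and 0 to 7 when 1 library was left out, and the median of -0.27 became -0.16 with total counts, -0.18 with the block and -0.28 to -0.15 with 1 library left out. With shControl-CM against growth medium the count of 16 became 10 with total counts or thinned libraries, 5 with the stricter thresholds and 5 to 17 with 1 library left out, and the median of 0.55 became 0.44 with total counts and 0.43 to 0.56 with 1 library left out. The share of members called higher there, 50% beside 18.2% of all genes, became 30% beside 14.9% with total counts, 33.3% beside 14.2% with thinned libraries and 16.7% beside 9% with the stricter thresholds. With shBrca2-CM against growth medium the count of 16 became 4 with the stricter thresholds (13.3% higher, beside 8.89% of all genes) and was 13 to 15 with 1 library left out, and the median of 0.25 became 0.41 with GC content in the offsets and 0.24 to 0.34 with 1 library left out. Thinning ended the shControl-CM calls of Pmvk, Lss, Cyp51, Insig2, Acaca and Sqle. With shBrca2-CM it ended those of Cyp51, Nsdhl and Srebf1 and gave those of Msmo1 and Sc5d. A group left with 1 library was assumed to vary like the other. The cause of these moves was not tested, apart from the smaller samples. Scaling by total counts shifted the all-gene median to 0.14 between the conditioned media and to -0.21 with shControl-CM against growth medium, and the share of calls that were higher from 50.4% to 67.6% between the conditioned media. GC content in the offsets moved that share from 49.3% to 59.5% with shBrca2-CM against growth medium. Replicate numbers did not pair the samples: same-numbered shBrca2-CM and shControl-CM libraries had correlations of -0.023, -0.0055 and 0.093, and with the block 17 of the 30 genes (56.7%) were called with shControl-CM and 15 (50%) with shBrca2-CM against growth medium, beside 37.3% and 32% of all genes. The block ended the calls of Pmvk and Srebf2 and gave those of Fasn, Msmo1 and Scd2 with shControl-CM, and it ended those of Hsd17b7 (edgeR adjusted p = 0.17), Cyp51 and Nsdhl and gave those of Msmo1 and Mvk with shBrca2-CM. Between the conditioned media the block also called Mvd lower (-0.54, edgeR adjusted p = 0.0897). No direction of a called gene turned under any alternative. Depth limits Fasn, Mlxipl and Ggps1, which had few counts, and Abca1 in 2 shControl-CM libraries at or under the floor of 3 counts.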
